A study of Homo sapiens with 9 samples.

Results

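Secreted antagonists of WNT, BMP and RANKL signalling were followed across human TC71 Ewing sarcoma cells recovered from mice. The 10 genes are DKK1, DKK2, DKK3, SFRP1, SFRP2, FRZB, SOSTDC1, NOG, GREM1 and TNFRSF11B, and all 10 have a row among the 34830 gene rows of the count table. They were chosen by name from this family with their detection and level in the 3 groups already known. Their levels and site differences are therefore given as descriptions, and calls of them in the fit across all genes stand only beside the share of all genes called. TC71 is an established human Ewing sarcoma cell line, a bone and soft tissue tumour line driven by an EWSR1-FLI1 fusion. All groups came from the same line: 100 cells in Matrigel were placed under the flank skin of immunodeficient NSG mice, which lack lymphocytes but keep other host cells. Flow cytometry was used to sort tumour cells out of bone marrow (4 libraries), lung (4 libraries) and the primary tumour (1 library) when tumours measured 1.5 cm. The labels give no drug treatment, animal age or animal number, nor which libraries share a mouse, so errors describe the spread between these samples, which may be partly technical.

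WNT ligands bind Frizzled receptors and the co-receptors LRP5 and LRP6, which stabilises beta-catenin. Dickkopf proteins (DKK) block the co-receptors, whereas secreted Frizzled-related proteins (SFRP, FRZB) bind WNT ligands themselves. Noggin (NOG) and gremlin (GREM1) bind bone morphogenetic proteins (BMP) outside the cell, and SOSTDC1 can act on both BMP and WNT signalling. Osteoprotegerin, made from TNFRSF11B, is a soluble decoy receptor for RANKL, the ligand that drives osteoclast formation. In bone these proteins are known as regulators of bone formation and resorption.

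Estimated counts summed to 14160000 to 17910000 per bone marrow library and 11550000 to 13220000 per lung library, with 12350000 in the primary library. Levels are in CPM, counts normalised to library size and scaled by TMM, a trimmed-mean method. A count of 0 allows a level of up to 0.183 to 0.255 CPM per library (3 counts, counting error only). The Ewing sarcoma markers were present, with summed levels of 1982 to 2296 CPM in bone marrow, 2351 to 2815 CPM in lung, with 2633 CPM in the primary tumour, and none of the 11 was at 0 throughout. Lung replicate 3 had the largest share of tested genes without counts, 14.9%, and bone marrow replicate 1 the smallest, 6.92%. The antagonist fold changes between sites were also computed without each library in turn. In bulk RNA, fewer cells with a transcript and less RNA per cell cannot be told apart.

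SOSTDC1 separated the sites. It was detected in all 4 bone marrow libraries and had no counts in any lung library, while the primary library was near the limit of detection. Its level was 4.44, 10.1, 9.80 and 20.3 CPM in bone marrow replicates 1 to 4, against 0 CPM in each of the 4 lung libraries and 0.153 CPM in the primary library. These levels rest on 60, 166, 141 and 311 counts in bone marrow, 0 counts in lung and 2 counts in the primary library. The lowest bone marrow library, replicate 1, still lay above every lung library and above the primary library. The bone marrow mean was 11.2 ± 6.61 CPM (SD, n = 4). Against a floor of 3 counts over the 4 lung libraries together (0.0579 CPM), this mean was 193 times the floor. The lowest bone marrow library was 76.7 times the same floor. The floor covers counting error only, not the spread between samples. With single libraries left out, the fold of the mean over the floor ran from 140 to 232. The lowest value was without lung replicate 2 and the highest without bone marrow replicate 1. As every lung library had 0 counts, leaving out a lung library only removed its depth and raised the floor. That part does not test the site difference. Over the summed counts, bone marrow held 74.1 times the primary level, with a 95% interval of 20.4 to 613 that covers counting error only. The gene (ENSG00000171243) lies on chromosome 7, 16461481 to 16530580 on the minus strand (GRCh38, GENCODE release 29, as for the genes that follow), and no annotated exon of another gene overlaps its exons.

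How many genes shared this pattern depended on the rule. Of 17042 genes that passed the filter on low counts, 6 had at least 10 counts in each bone marrow library and none in any lung library, which is 0.0352%. SOSTDC1 had the highest bone marrow mean of these 6, and the others were IFT122, TEKT2, DSCR8, HECTD3 and RP4-539M6.19. The thresholds of this pattern were chosen after the SOSTDC1 values were seen. The reverse pattern, with at least 10 counts in each lung library and none in bone marrow, held for 1 gene. Without a threshold on counts at the other site, 648 of the 17042 genes had 0 counts in all 4 libraries of bone marrow or of lung. With a looser rule, every bone marrow library lay above every lung library for 480 genes, or 2.82% of those tested, and SOSTDC1 was the only one of the 10 antagonists among them. Depth moved with site. At the smallest lung library, the lowest bone marrow level of SOSTDC1 corresponds to 52.4 counts, a figure from scaling alone. Of the tested genes, 1472 or 8.64% had 0 counts in at least 1 library and at least 100 in another. The part of depth in the SOSTDC1 pattern was not tested.

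Markers of cells that could accompany the sorted tumour cells were read beside this result. The markers are human gene rows, and the processing notes name hg38. Reads of mouse host cells could reach these rows only by matching human sequence. A marker at 0 therefore does not show that such cells were absent. Osteoblast and marrow stroma markers, 11 genes, summed to 14.9 to 40.4 CPM in bone marrow, 17.6 to 43.1 CPM in lung, with 25.0 CPM in the primary tumour, with overlapping sites, and BGLAP, the osteoblast product osteocalcin, was at 0 in all 9 libraries. Of its 8 tested genes 5 were higher in bone marrow (median log2 fold change 0.40), and edgeR called 0. The 2 with an unadjusted p below 0.05 were ALPL, the alkaline phosphatase of bone, and COL1A2, a collagen chain that is also on the fibroblast list. ALPL was at 2.57 ± 3.22 CPM in bone marrow, against no counts in lung, and COL1A2 at 1.93 ± 1.68 CPM in bone marrow, against 0.138 ± 0.0461 CPM in lung (SD, n = 4 per site). Leukocyte markers, 12 genes, summed to 11.9 to 242 CPM in bone marrow, 2.76 to 49.7 CPM in lung, with 35.8 CPM in the primary tumour, with CSF1R at 0 throughout. Of its 7 tested genes 3 were higher in bone marrow, and the median log2 fold change was -0.05. LCP1 carried most of the mean sum in bone marrow, at 82.9 ± 102 CPM, against 3.20 ± 3.49 CPM in lung. In lung CD68 had the highest mean of the list, at 7.98 ± 9.09 CPM, against 0.111 ± 0.222 CPM in bone marrow (SD, n = 4 per site). Red cell markers, 9 genes, summed to 16.6 to 104 CPM in bone marrow, 3.63 to 162 CPM in lung, with 8.44 CPM in the primary tumour, with ALAS2 at 0. Lung epithelial markers, 10 genes, summed to 21.3 to 87.6 CPM in bone marrow and 14.8 to 129 CPM in lung, against 39.4 CPM in the primary library, with SFTPD and SCGB1A1 at 0. Of its 4 tested genes 0 were higher in bone marrow (median log2 fold change -0.25), and edgeR called 0. The 1 with an unadjusted edgeR p below 0.05 was AGER, with no counts in bone marrow, against 0.651 ± 0.757 CPM in lung (SD, n = 4 per site). Endothelial markers, 8 genes, summed to 23.7 to 38.8 CPM in bone marrow, 27.4 to 30.6 CPM in lung, with 23.9 CPM in the primary tumour, with ESAM at 0. Fibroblast markers, 9 genes, summed to 111 to 366 CPM in bone marrow, 163 to 403 CPM in lung, with 301 CPM in the primary tumour. The share of reads that the authors assigned to mouse was 7.35 to 7.75% in bone marrow, 7 to 8.09% in lung and 7.45% in the primary library. The part of host cells or host reads in the SOSTDC1 result was not tested.

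**Figure D1:**
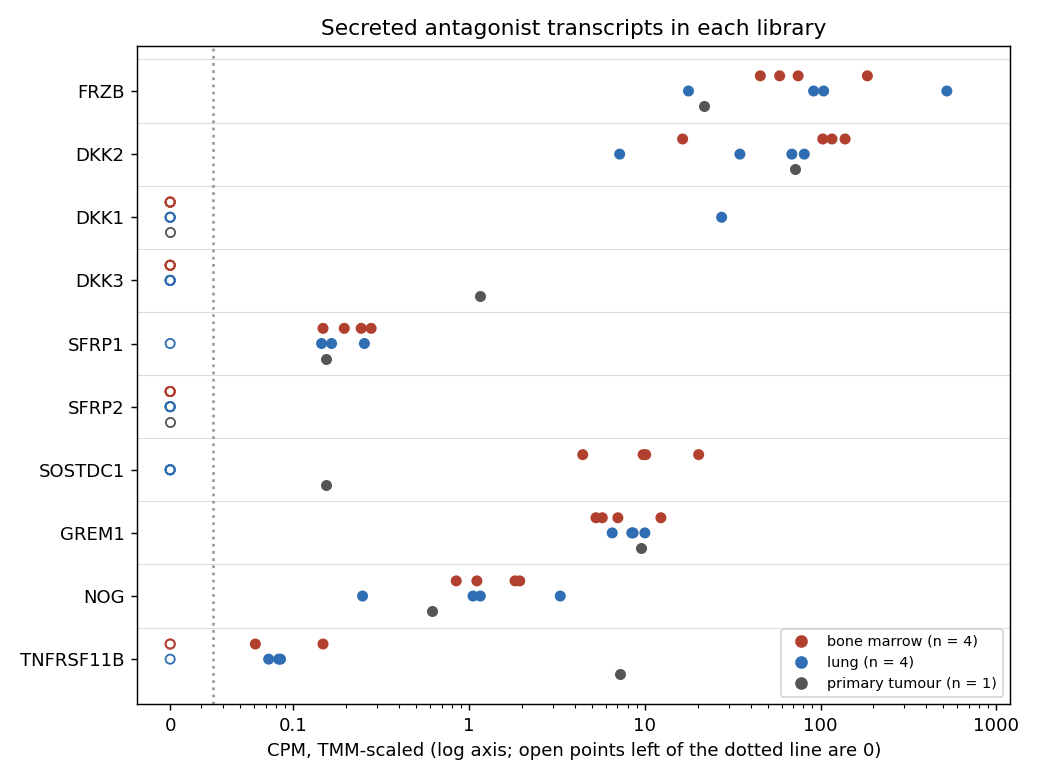
Level of each of the 10 antagonist transcripts (rows) in each library, in TMM-scaled CPM on a log axis. Open points left of the dotted line are libraries with no counts. SOSTDC1 is at 4.44 to 20.3 CPM in the 4 bone marrow libraries and at 0 in the 4 lung libraries, DKK1 is present in 1 lung library, and TNFRSF11B stands at 7.21 CPM in the primary library.

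Among the WNT antagonists, DKK2 and FRZB were the abundant members. DKK2 encodes a Dickkopf protein that binds LRP5 and LRP6. Its level was 16.4, 103, 138 and 116 CPM in bone marrow replicates 1 to 4, against 34.8, 80.8, 7.20 and 68.7 CPM in lung replicates 1 to 4 and 71.3 CPM in the primary library. Bone marrow replicates 2 to 4 lay above every lung library, whereas bone marrow replicate 1 lay below all but lung replicate 3, so the sites overlapped. DKK2 averaged 93.4 ± 53.3 CPM in the bone marrow libraries, against 47.9 ± 33.4 CPM in the lung libraries (SD, n = 4 per site), a log2 fold change of 0.96 ± 0.77 (SE). Leaving out single libraries moved it between 0.61, without lung replicate 3, and 1.34, without lung replicate 2. Without bone marrow replicate 1 and lung replicate 3 together, it was 0.95 ± 0.36. These held the least DKK2 of their sites and were left out after the data were seen. The smaller SE is therefore not read as firmer support. The primary library lay within the range of both sites. DKK2 (ENSG00000155011) lies on chromosome 4, 106921802 to 107283806 on the minus strand.

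FRZB encodes a secreted Frizzled-related protein that binds WNT ligands. Its level was 58.5, 185, 45.4 and 74.6 CPM in bone marrow replicates 1 to 4, against 104, 17.7, 91.3 and 523 CPM in lung replicates 1 to 4 and 21.7 CPM in the primary library. Lung replicate 4 held the highest value of the 9 libraries and lung replicate 2 the lowest, so lung enclosed both other groups. The fold between the highest and the lowest library was 29.5 in lung and 4.06 in bone marrow. FRZB averaged 90.8 ± 63.7 CPM in the bone marrow libraries, against 184 ± 229 CPM in the lung libraries (SD, n = 4 per site). The log2 fold change was -1.02 ± 0.88 (SE). The direction rested on lung replicate 4, since the log2 fold change without it was 0.38, and over the other single libraries it stayed below 0, down to -1.63 without bone marrow replicate 2. The primary library lay below 7 of the 8 metastasis libraries. FRZB (ENSG00000162998) lies on chromosome 2, 182833275 to 182867162 on the minus strand.

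FRZB had the highest mean CPM of the antagonists, and the 5 genes most like it were listed by Pearson's r of log2(CPM + 1) over the 9 libraries. They were PIGY (r = 0.95), CCZ1B (0.91), ARHGAP32 (0.90), ADAM12 (0.89) and ARL16 (0.88), the highest of 9643 genes searched. All 5 had their highest level in lung replicate 4, the library that also held the most FRZB, and the points share library depth and scaling.

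DKK1, also an LRP5 and LRP6 antagonist, was present in 1 library. Lung replicate 2 held 389 counts, a level of 27.4 CPM with a 95% interval of 24.7 to 30.3 (exact Poisson, counting error only). The 4 bone marrow libraries, the other 3 lung libraries and the primary library each had no counts. Such a pattern, with at least 100 counts in 1 library and none in the other 8, held for 13 of 17042 tested genes, or 0.0763%, a threshold chosen after the DKK1 values were seen. In the same library FRZB was at its lowest of the 9. DKK1 (ENSG00000107984) lies on chromosome 10, 52314296 to 52318042 on the plus strand, and 9.61% of its exonic bases are also exonic in the antisense gene PRKG1-AS1, which unstranded counting could not separate.

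DKK3, a more distant member of the Dickkopf family, had 15 counts in the primary library, a level of 1.15 CPM with a 95% interval of 0.644 to 1.90 (exact Poisson), and none in any metastasis library after rounding. SFRP1 had 0 to 4 counts in each of the 9 libraries. Its level was 0.148 to 0.278 CPM in bone marrow, 0 to 0.255 CPM in lung, with 0.153 CPM in the primary tumour, at about the level that a count of 0 allows, so no site difference was detectable at this depth. SFRP2 had no counts in any library.

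The stretch of DNA before the RefSeq gene start is printed for the antagonist with the highest mean level, the one found in a single library and the one with no counts. RefSeq promoter sequences (GRCh38.p14) were given for 4 of the 10 genes, and the 250 bases before the start are printed 5′ to 3′ on the strand of the gene. RefSeq and GENCODE starts differ, so the FRZB window lies wholly, and the SFRP2 window partly, inside the gene as GENCODE release 29 draws it. Capitals mark GGAA, the core letters of ETS factors such as FLI1, and CTTTGA, core letters of the TCF/LEF factors of the WNT pathway, each on either strand.
FRZB, chr2:182866638-182866887, minus strand: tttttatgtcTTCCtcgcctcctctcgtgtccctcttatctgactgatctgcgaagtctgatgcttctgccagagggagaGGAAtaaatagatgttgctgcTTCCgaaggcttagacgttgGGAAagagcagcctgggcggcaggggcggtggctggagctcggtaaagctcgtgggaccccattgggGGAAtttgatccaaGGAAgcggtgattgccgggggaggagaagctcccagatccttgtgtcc
DKK1, chr10:52314031-52314280, plus strand: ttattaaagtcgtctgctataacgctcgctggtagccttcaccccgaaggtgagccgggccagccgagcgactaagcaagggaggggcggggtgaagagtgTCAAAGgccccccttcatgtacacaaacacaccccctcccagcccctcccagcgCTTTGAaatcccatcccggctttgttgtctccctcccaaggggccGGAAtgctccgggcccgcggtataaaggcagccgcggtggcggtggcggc
SFRP2, chr4:153789084-153789333, minus strand: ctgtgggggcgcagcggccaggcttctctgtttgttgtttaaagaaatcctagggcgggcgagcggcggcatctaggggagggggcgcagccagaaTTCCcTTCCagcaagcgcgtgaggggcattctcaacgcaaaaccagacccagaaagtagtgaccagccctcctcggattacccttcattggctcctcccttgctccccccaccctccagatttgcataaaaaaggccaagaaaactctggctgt
The FRZB window held 6 GGAA matches, 4 on the plus and 2 on the minus side of the printed strand, and no CTTTGA. The DKK1 window held 1 GGAA and 2 CTTTGA matches, and the SFRP2 window 2 GGAA matches and no CTTTGA. No match overlapped one of the other motif. GGAA occurred in 92.7% of 35116 promoter windows of the same length, at least 6 times in 9.1%, and CTTTGA in 11.2%. The tandem form GGAAGGAA, found in 3.1% of windows, was in none of these 3. A match describes letters and shows no binding.

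**Figure D2:**
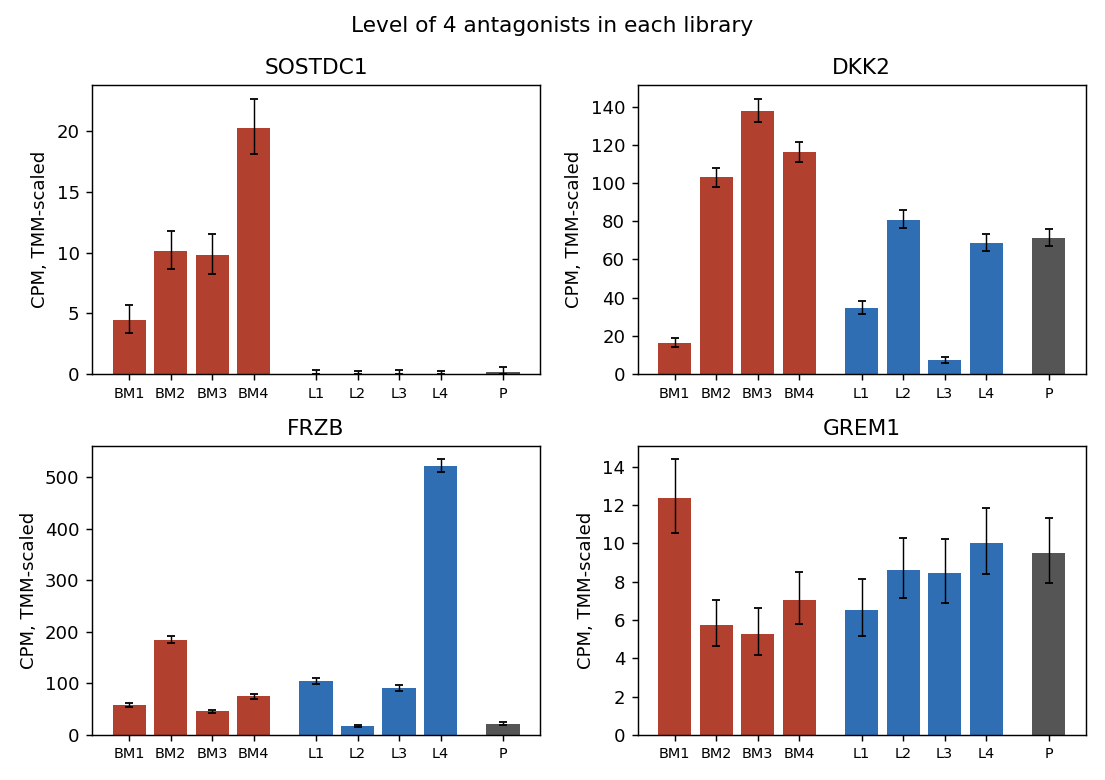
TMM-scaled CPM of SOSTDC1, DKK2, FRZB and GREM1 in each library (bars; BM1 to BM4 bone marrow, L1 to L4 lung, P primary tumour), with 95% Poisson intervals that cover counting error only. Bone marrow replicates 2 to 4 hold more DKK2 than any lung library, FRZB is highest in lung replicate 4 at 523 CPM, and GREM1 stays between 5.28 and 12.4 CPM.

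Of the BMP antagonists other than SOSTDC1, GREM1 was the steadiest of the 10 genes. Its level was 12.4, 5.74, 5.28 and 7.04 CPM in bone marrow replicates 1 to 4, against 6.53, 8.59, 8.45 and 10.02 CPM in lung replicates 1 to 4 and 9.51 CPM in the primary library. The highest of the 9 libraries was 2.34 times the lowest, and the 3 groups overlapped. The log2 fold change was -0.14 ± 0.49 (SE) and -0.46 without bone marrow replicate 1, which held the most. GREM1 (ENSG00000166923) lies on chromosome 15, 32717974 to 32745107 on the plus strand, and 1.29% of its exonic bases overlap a noncoding gene on the other strand.

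NOG was low in every library. Its level was 1.11, 1.83, 1.95 and 0.847 CPM in bone marrow replicates 1 to 4, against 3.31, 1.06, 0.248 and 1.16 CPM in lung replicates 1 to 4 and 0.614 CPM in the primary library. Lung held both the highest and the lowest library. NOG averaged 1.43 ± 0.538 CPM in the bone marrow libraries, against 1.44 ± 1.31 CPM in the lung libraries (SD, n = 4 per site). The log2 fold change of -0.01 ± 0.82 (SE) ran from -0.35 to 0.80 over single libraries left out, the highest without lung replicate 1, so its direction was not settled. NOG (ENSG00000183691) is a single-exon gene on chromosome 17, 56593699 to 56595590 on the plus strand.

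TNFRSF11B was found mainly in the primary library. Its counts were 2, 1, 0 and 0 in bone marrow replicates 1 to 4, against 1, 0, 1 and 1 in lung replicates 1 to 4 and 94 in the primary library. The level was at most 0.148 CPM in bone marrow and at most 0.0848 CPM in lung, against 7.21 CPM in the primary library (95% interval 5.83 to 8.82, exact Poisson). No metastasis library reached the primary library, as for 1718 of 17042 tested genes, or 10.1%. A difference between the sites was not detectable at this depth. Summed over the 8 metastasis libraries the level was 0.00746 of the primary level, with a 95% interval of 0.00267 to 0.0169 that covers counting error only. At least 50 counts in the primary library with at most 2 in each metastasis library was seen for 10 of 17042 tested genes, or 0.0587%, thresholds again chosen after the values were seen. The primary tumour has 1 library, so this difference has no replicate check. RANKL itself (TNFSF11) had 0 to 6 counts per library and was at 0.126 ± 0.166 CPM in the bone marrow libraries, against 0.343 ± 0.07 CPM in the lung libraries and 0.23 CPM in the primary tumour (SD, n = 4 per site). Its receptor RANK (TNFRSF11A) was at 0.857 ± 0.34 CPM in the bone marrow libraries, against 3.65 ± 3.46 CPM in the lung libraries and 7.13 CPM in the primary tumour (SD, n = 4 per site).

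Between genes, levels can be set side by side only per length, here CPM per kilobase of exonic sequence in GENCODE release 29. On this scale the mean level over the 9 libraries was 39.4 for FRZB, 16.4 for DKK2, 2.01 for SOSTDC1, 1.38 for DKK1, 0.712 for NOG, 0.559 for GREM1 and 0.301 for TNFRSF11B, and under 0.04 for DKK3, SFRP1 and SFRP2. FRZB ranked first in 5 libraries and DKK2 in 4. FRZB and DKK2 were the leading pair in every library but lung replicate 2, where DKK1 took the place of FRZB. Per site, FRZB was at 28.7 ± 20.1 in bone marrow and 58.2 ± 72.4 in lung, and DKK2 at 21.6 ± 12.3 in bone marrow and 11.1 ± 7.73 CPM per kilobase in lung (SD, n = 4 each), so the spread within a site covered the order of the pair. The rank of SOSTDC1 rested on bone marrow, with 4.51 ± 2.67 CPM per kilobase there, against 0 in lung and 0.062 in the primary library. NOG and GREM1 lay above it in lung and in the primary library. The lower ranks also overlapped for NOG and GREM1, and the ranks of DKK1 and TNFRSF11B each rested on 1 library.

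In the fit across all genes, 8 of the 10 antagonists passed the filter on low counts, and SFRP1 and SFRP2 did not. DKK1, DKK3 and TNFRSF11B passed through 1 library each, and SOSTDC1 through the bone marrow libraries alone, where it was high. Between bone marrow and lung, edgeR's quasi-likelihood test called 0 of the 8 at an adjusted p below 0.05, against 1 gene of 17042 or 0.00587% of all tested genes. At an unadjusted p below 0.05 it had 2 of the 8, SOSTDC1 and DKK1, the second through 1 library alone, against 10.2% of all tested genes. DESeq2 called 1 of them, SOSTDC1, against 3.38% of all genes with an adjusted p, and limma voom called SOSTDC1, against 0.0352%. For metastases against the primary library, edgeR called 0 of the 8 and 0 of all 17042 genes, or 0%, and 2 of the 8, DKK3 and TNFRSF11B, had an unadjusted p below 0.05, against 4.79% of all tested genes. Both passed the filter only through the primary library, where they were high. DESeq2 called 0 of them, against 0.716% of all genes, and limma voom called 1, TNFRSF11B, against 0.282%. As the genes were chosen with these contrasts known, nothing is read from those counts.

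**Figure D3:**
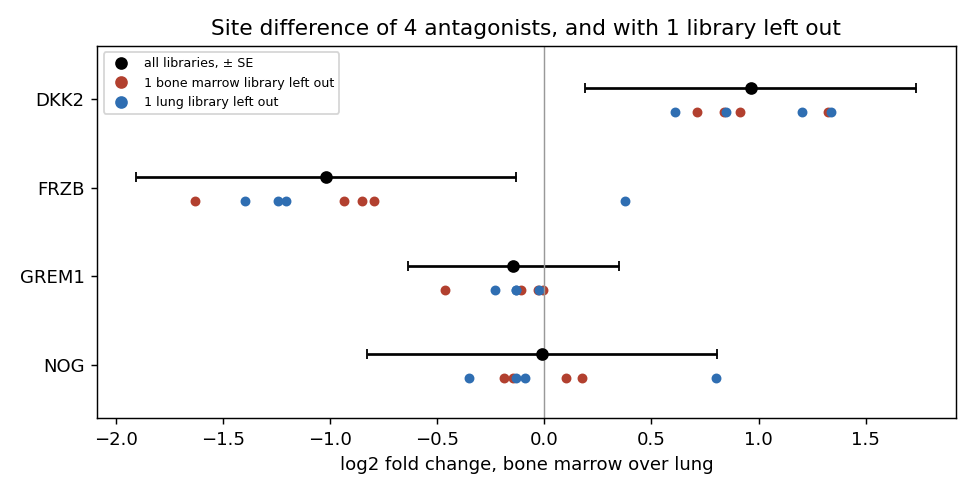
Log2 fold change of bone marrow over lung for the 4 antagonists with counts in every library. Black points with bars are the estimate from all libraries with its standard error, and coloured points leave out 1 library each. DKK2 stays above 0, from 0.61 to 1.34, FRZB crosses to 0.38 without lung replicate 4, and NOG lies on both sides of 0.

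The partners of these antagonists were read from lists of 126 other genes of the WNT, BMP and RANKL pathways, of which 95 were tested. Between bone marrow and lung, edgeR called 0 of the 95, with a lowest adjusted p of 0.381. At an unadjusted p below 0.05 there were 15, or 15.8%, against 10.2% of all tested genes. The median log2 fold change of the 95 was -0.18, against 0.00 for all tested genes, and 42 were higher in bone marrow. DESeq2 called 3 of the 71 with an adjusted p, a share near the 3.38% of all genes, and limma voom called 0 of the 95. Against the primary library, edgeR, DESeq2 and limma voom called 0 of the 95, 4 had an unadjusted p below 0.05, or 4.21% against 4.79% of all tested genes, and the median was 0.02, against 0.17 for all tested genes.

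As that share is near the background, the 3 are given for their values only. They were a receptor and 2 target genes. FZD7, a Frizzled receptor, was at 17.7, 4.15, 6.32 and 7.95 CPM in bone marrow replicates 1 to 4, against 36.9, 35.1, 13.6 and 32.8 CPM in lung replicates 1 to 4 and 35.5 CPM in the primary library. The sites overlapped, as bone marrow replicate 1 lay above lung replicate 3 (DESeq2 adjusted p = 0.0482, edgeR adjusted p = 0.436). ID4, a BMP-responsive inhibitor of helix-loop-helix factors, was at 19.8, 28.4, 23.9 and 8.41 CPM in bone marrow replicates 1 to 4, against 44.5, 50.6, 77.5 and 47.7 CPM in lung replicates 1 to 4 and 14.0 CPM in the primary library. Every lung library lay above every bone marrow library (DESeq2 adjusted p = 0.0328, edgeR adjusted p = 0.402), as for 522 genes or 3.06% of those tested. ZNRF3, a membrane ubiquitin ligase that is both a target and a feedback inhibitor of WNT signalling, was at 6.66, 0, 17.4 and 11.7 CPM in bone marrow replicates 1 to 4, against 0 CPM in all 4 lung libraries and 0.0767 CPM in the primary library. It was thus found in 3 of 4 bone marrow libraries and in no lung library (DESeq2 adjusted p = 0.000556, edgeR adjusted p = 0.381). A whole site without counts, bone marrow or lung, was seen for 648 of 17042 tested genes.

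Of 15 tested WNT receptor genes, 7 were higher in bone marrow and the median log2 fold change was -0.15. FZD3, the one with the highest mean CPM, was at 58.8 ± 10.9 CPM in the bone marrow libraries, against 48.1 ± 36.3 CPM in the lung libraries and 17.95 CPM in the primary tumour (SD, n = 4 per site). FZD5 was at 40.9 ± 8.07 CPM in the bone marrow libraries, against 13.7 ± 11.6 CPM in the lung libraries and 61.4 CPM in the primary tumour (SD, n = 4 per site). The DKK co-receptor LRP6 was at 26.2 ± 11.7 CPM in the bone marrow libraries, against 29.1 ± 16.01 CPM in the lung libraries and 20.02 CPM in the primary tumour (SD, n = 4 per site), whereas LRP5 was at 0 in 5 of the 9 libraries and at most 2.53 CPM. KREMEN1, a DKK co-receptor, had no counts in any library. Of 8 tested WNT ligands, 2 were higher in bone marrow (median -0.57). WNT5A, highest in mean CPM among them, was at 98.7 ± 21.8 CPM in the bone marrow libraries, against 88.3 ± 27.98 CPM in the lung libraries and 161 CPM in the primary tumour (SD, n = 4 per site).

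Other antagonists were present beside the 10. Of 8 tested WNT antagonists, 3 were higher in bone marrow (median log2 fold change -0.33). APCDD1, highest in mean CPM among them, was at 16.3 ± 6.13 CPM in the bone marrow libraries, against 22.7 ± 6.58 CPM in the lung libraries and 19.03 CPM in the primary tumour (SD, n = 4 per site), and WIF1, a secreted WNT-binding protein, at 10.6 ± 0.668 CPM in the bone marrow libraries, against 17.3 ± 6.98 CPM in the lung libraries and 13.2 CPM in the primary tumour (SD, n = 4 per site). Of 11 tested BMP antagonists, 5 were higher in bone marrow (median -0.21). TWSG1, a chordin cofactor, was at 102 ± 41.5 CPM in the bone marrow libraries, against 86.5 ± 55.9 CPM in the lung libraries and 129.7 CPM in the primary tumour (SD, n = 4 per site). FSTL1, a follistatin-like secreted protein, was at 114 ± 24.2 CPM in the bone marrow libraries, against 72.5 ± 35.7 CPM in the lung libraries and 131 CPM in the primary tumour (SD, n = 4 per site). Among 3 tested R-spondins, which potentiate WNT signals, 1 was higher in bone marrow (median -0.24). RSPO2 was at 18.1 CPM in bone marrow replicate 1, at most 0.427 CPM in the other bone marrow libraries and at most 0.291 CPM in lung, against 5.83 CPM in the primary library.

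Of 10 tested WNT target genes, 6 were higher in bone marrow, and the median log2 fold change was 0.38. MYC was at 458 ± 139 CPM in the bone marrow libraries, against 282 ± 139 CPM in the lung libraries and 458 CPM in the primary tumour (SD, n = 4 per site), and CCND1, cyclin D1, at 184 ± 31.9 CPM in the bone marrow libraries, against 175 ± 43.4 CPM in the lung libraries and 313 CPM in the primary tumour (SD, n = 4 per site). AXIN2, a feedback target, was at 0.518, 0.122, 0.347 and 2.61 CPM in bone marrow replicates 1 to 4, against 10.1, 0.422, 9.52 and 0.726 CPM in lung replicates 1 to 4 and 0.153 CPM in the primary library, so lung replicates 1 and 3 held the highest levels. Of 9 tested BMP target genes, 3 were higher in bone marrow (median -0.57). ID3, highest in mean CPM among them, was at 519 ± 248 CPM in the bone marrow libraries, against 439 ± 156 CPM in the lung libraries and 257 CPM in the primary tumour (SD, n = 4 per site). ID2 was at 168 ± 23.8 CPM in the bone marrow libraries, against 249.8 ± 27.5 CPM in the lung libraries and 163 CPM in the primary tumour (SD, n = 4 per site), and ID1 at 181 ± 75.5 CPM in the bone marrow libraries, against 216 ± 54.4 CPM in the lung libraries and 179 CPM in the primary tumour (SD, n = 4 per site). Of 10 tested BMP ligands 6 were higher in bone marrow (median 0.38), of 13 tested BMP receptors and SMADs 6 (median -0.15), and of 8 tested RANKL and TRAIL genes 3 (median -0.44).

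**Figure D4:**
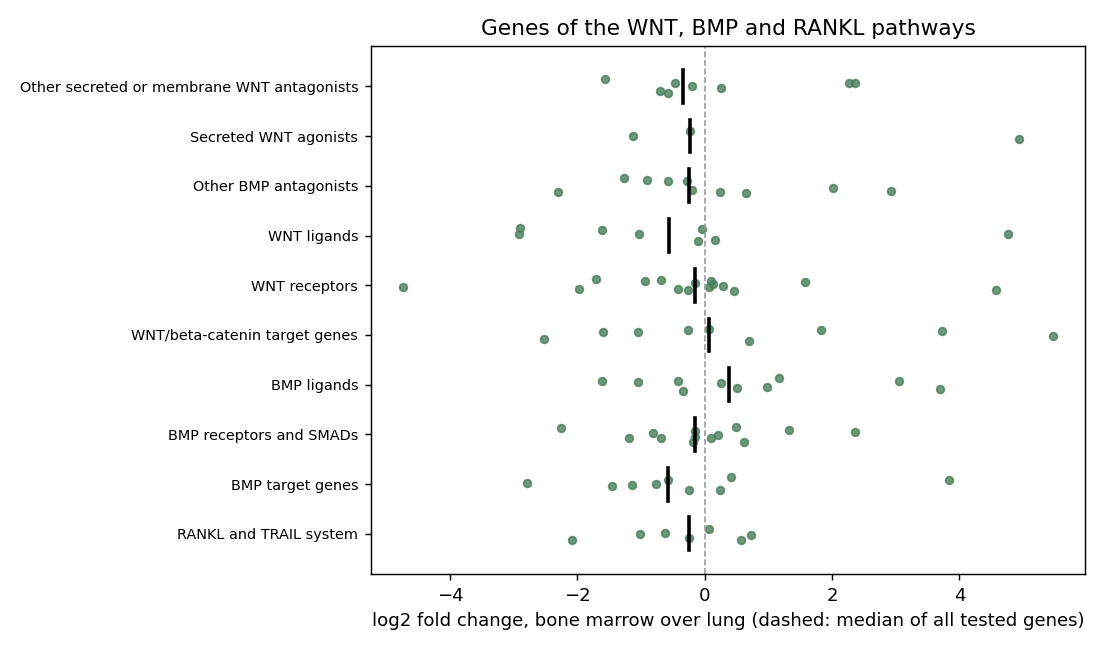
Log2 fold change of bone marrow over lung for tested genes of the WNT, BMP and RANKL lists (points), with the list median as a black line over the genes drawn and the median of all tested genes as a dashed line. The 3 pathway genes with no counts in a whole site are not drawn, so medians can differ from those over all tested members. Every list spreads to both sides of 0.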

How the data were processed

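Per the labels' protocols, RNA of 9 libraries was amplified by template switching for low input. The authors deposited estimated counts per gene symbol, with fractions and not scaled to depth, and a table with the percent of reads assigned to each species and fractions of reads by counting category. The submitters' processing notes name Trim Galore, Salmon and hg38 without versions; strand setting and annotation are not given in the sources used here. Of 34934 rows, 12 reporter or drug-selection rows and 92 spike-in rows were left out (at most 0.0159% of a library's counts). The fraction columns were not used.

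Counts were rounded, filtered with filterByExpr and scaled by TMM. One edgeR 4.0.16 quasi-likelihood model with 3 groups held all 9 libraries, and p-values were adjusted by Benjamini-Hochberg over 17042 genes, two-sided, with a threshold of 0.05. The filter counts the primary tumour as a group of 1, so 1 library is enough to pass it. A positive fold change (log2) is a higher level in bone marrow than in lung, or in metastases than in the primary library. Standard errors are the absolute log2 fold change over the square root of F. DESeq2 1.42.0 and limma 3.58.1 voom with quality weights were alternatives, beside other scalings, filters, a replicate block and left-out libraries. Simulated counts with known changes were used to test the edgeR step. Poisson intervals and floors cover counting error only.

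The genes, lists and rules were chosen with earlier results of these data known. Pathway genes are named where they were called, or among the up to 4 of a list with the highest mean CPM. FZD7 was called by DESeq2 alone, and LRP5, LRP6, KREMEN1, TNFSF11, TNFRSF11A, ALPL, COL1A2, LCP1, CD68 and AGER fall outside the rule and were chosen after their values were seen. Of 36 library pairs, none agreed within sampling noise (lowest chi-square per degree of freedom 79.9). Deviations of same-numbered bone marrow and lung libraries correlated between -0.06 and 0.04, so replicate numbers were not taken as pairs.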

Additional observations from a re-analysis of the deposited data

Results flagged for a closer look

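In 14 groups of 4 libraries that had any spread, 2 held a library far from the other 3. The rule flags about 1 in 20 by chance for continuous values. That rate does not hold for ties at 0 or differences of 1 count, so the 2 are not set against it. DKK1 was at 27.4 CPM in lung replicate 2, and the next highest lung library was at 0. TNFRSF11B was at 0 CPM in lung replicate 2, against 0.0726 CPM in the next lowest lung library, a difference of 1 count. The cause of neither was tested.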

How the results depend on the processing

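The number of genes called between bone marrow and lung was 1 with all libraries and the default settings. It was also 1 without a filter, with the 8 metastasis libraries alone, with scaling by library size and with median-ratio factors. It was 3 with at least 5 CPM in at least 4 libraries, 468 with DESeq2 and 6 with limma voom, and the causes of these differences were not tested. It was 0 to 0 with single libraries left out and 0 without bone marrow replicate 1 and lung replicate 3, an alternative chosen after seeing the data. With the replicate number as a block it was 0. For metastases against the primary library the count was 0 by edgeR under every alternative run, 97 with DESeq2 (78 higher, 19 lower) and 48 with limma voom (0 higher, 48 lower). Of the pathway genes, DESeq2 called 3 between the sites; every other alternative called 0. Of the antagonists' fold changes under alternatives, 129 moved by less than the spread between replicates and 11 by more, of which 10 were TNFRSF11B and 1 NOG. This spread is the SD of log2(CPM + 1) within sites, which is small for TNFRSF11B at 0 to 2 counts per metastasis library. Its log2 fold change against the primary library is not on that scale, so the 10 are not read as instability. It was -6.81 with all libraries and ran from -7.37 to -6.62 with single libraries left out. With limma voom the FRZB site difference was -0.25. With at least 10 counts required, SFRP1 was detected in 0 libraries in place of 8, TNFRSF11B in 1 in place of 6. Levels under about 0.255 CPM are limited by depth, and the primary tumour by its 1 library.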
